A study of Mus musculus with 14 samples.

Results

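The genes described here are the SR proteins and the heterogeneous nuclear ribonucleoproteins (hnRNPs) that carry the symbols Srsf and Hnrnp. They were chosen with earlier results of these data known. The rule went by name alone, taking rows whose symbol is Srsf with a number or Hnrnp with letters or digits. This gave 31 genes, 11 Srsf and 20 Hnrnp, of 54955 symbols or unnamed IDs in the table; 3 pseudogene names were left out by the rule. RNA came from adipose tissue of 14 mice of the strain C57BL/6 at 21 weeks of age. Of these, 7 have the genotype wild type (WT, replicates 3 to 9) and 7 the genotype ko-dectin1 (KO, replicates 1 to 7), and the labels name no other treatment. The labels name no depot, no targeted exons and no breeding scheme, and each library is taken as 1 mouse. The comparison asks what loss of Dectin-1, a receptor of myeloid cells for fungal beta-glucan, does to adipose RNA.

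SR proteins bind exons through RNA recognition motifs and recruit the spliceosome through a tail rich in arginine and serine, which kinases of the CLK and SRPK families phosphorylate. Most hnRNPs bind introns or exons in nascent RNA and many oppose SR proteins at nearby splice sites, so the balance between both families shapes alternative exons. Both families limit their own level by splicing extra transcripts that are degraded or kept in the nucleus. In fat cells, SR proteins are known for alternative splicing that depends on insulin and accompanies adipocyte differentiation.

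Clec7a, the gene for Dectin-1, did not separate the groups, with 6.94 ± 2.61 TPM (SD, n = 7) in the first group and 10.99 ± 5.99 in the WT libraries, so the former are called KO-labelled. TPM is a share of all transcripts in a library, scaled by gene length to a fixed total. Adipocyte markers were abundant in all 14 libraries (15 genes, summed level 15194 to 66875 TPM in KO-labelled and 36128 to 69202 in WT libraries). B-cell and plasma-cell markers (13 genes) were low in 3 libraries, KO replicate 7 at 227 TPM, WT replicate 4 at 154 and WT replicate 7 at 276, and were at 717 TPM or more in the others. Skeletal muscle markers (14 genes) ran from 27.5 to 9001 TPM in KO-labelled and from 44.0 to 27462 in WT libraries. In bulk tissue, fewer cells of a type and less RNA per cell cannot be told apart.

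The promoters of the members carried many CpG dinucleotides, and short motifs were counted there in each family. RefSeq (GRCm38.p6) gives windows for 29 of the 31 genes; Hnrnpll and Hnrnpul2 had no entry. In the 250 bases before the start, the median observed over expected CpG was 0.99 for the members and 0.74 for the 10597 tested genes with a window, and the median GC content was 68.4% against 60.8%. For a gene with several windows the highest value was taken. The members had 41 windows over 29 genes and the tested genes 13525 over 10597. The windows of 4 members are shown as examples, Srsf5 as the most abundant SR gene, Srsf9 as the SR gene of lowest fold change, and Hnrnpa1 and Hnrnpab for their repeats of CCAAT. Each is written 5′ to 3′ on the strand of the gene, and capitals mark motif letters on either strand. The motifs searched were CCAAT, the SP motif GGGCGG, the ETS motif CCGGAAG, the YY1 motif AAGATGGCG, the sequence TATAAA, and for NRF1 a pair of GCGC with any 2 bases between. In Srsf5 the last SP match and the last ETS match share a base.
Srsf5, chr12:80945249-80945498, plus strand: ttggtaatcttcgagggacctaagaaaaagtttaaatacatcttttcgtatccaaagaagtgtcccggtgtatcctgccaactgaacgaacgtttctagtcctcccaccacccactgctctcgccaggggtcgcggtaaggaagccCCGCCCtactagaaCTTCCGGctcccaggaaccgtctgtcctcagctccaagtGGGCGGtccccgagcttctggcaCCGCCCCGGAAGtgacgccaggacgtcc
Srsf9, chr5:115326927-115327176, plus strand: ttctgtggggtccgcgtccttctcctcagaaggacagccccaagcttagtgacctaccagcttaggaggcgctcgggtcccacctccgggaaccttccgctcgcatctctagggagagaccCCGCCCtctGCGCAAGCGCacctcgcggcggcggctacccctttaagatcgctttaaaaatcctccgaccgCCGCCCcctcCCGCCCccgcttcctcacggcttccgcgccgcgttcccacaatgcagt
Hnrnpa1, chr15:103240147-103240396, plus strand: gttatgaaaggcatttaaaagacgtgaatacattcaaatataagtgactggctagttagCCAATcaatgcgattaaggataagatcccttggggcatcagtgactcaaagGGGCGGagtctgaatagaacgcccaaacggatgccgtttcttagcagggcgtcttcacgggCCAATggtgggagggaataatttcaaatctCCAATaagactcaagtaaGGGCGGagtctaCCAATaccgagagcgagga
Hnrnpab, chr11:51606882-51607131, minus strand: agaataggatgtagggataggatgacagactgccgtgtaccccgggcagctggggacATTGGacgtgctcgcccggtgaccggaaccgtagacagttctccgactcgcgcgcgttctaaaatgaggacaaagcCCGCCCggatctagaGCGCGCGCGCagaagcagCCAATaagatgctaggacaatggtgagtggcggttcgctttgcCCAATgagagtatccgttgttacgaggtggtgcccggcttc

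Hnrnpa1 holds CCAAT 4 times, its first base 191, 79, 49 and 19 bases before the start, and Hnrnpab 3 times, at 193, 84 and 41 bases. Such repeats are not particular to them. Hnrnpc, Hnrnpl and a window of Hnrnpr also hold it 4 times, and Hnrnph2 and Hnrnpul1 hold it 3 times. Srsf5 has no CCAAT but has the ETS letters at 90 and 23 bases and the SP letters 3 times. Srsf9 has the NRF1 letters once and the SP letters 3 times. A CCAAT was found in 13 of 18 Hnrnp genes (72.2%) and 3 of 11 Srsf genes (27.3%), beside 40.2% of the tested genes. The ETS letters were found in 4 of 11 Srsf genes and 2 of 18 Hnrnp genes, beside 15.1% of the tested genes. NRF1 letters were in 8 of the 29 members (27.6%, against 11.4%), SP letters in 24 (82.8%, against 61.8%), TATAAA in 3 (10.3%, against 8.26%) and YY1 letters in 0 (against 1.39%). Where a gene has several windows, any of them counted, and a match is only a match of letters.

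All members but 1 were expressed in this tissue. Hnrnpa2b1, a nuclear protein that binds AG-rich RNA and microRNA precursors, was the most abundant by TPM, at a mean of 397 over 14 libraries. It was followed by Hnrnpf at 259.8 TPM, Hnrnpk at 255, Srsf5 at 203 and Hnrnpl at 194, by each gene's own row. Together with possible copies that carry the same product name, described below, Hnrnpa3 came to 229 TPM and Hnrnpa1 to 201. Hnrnpf and Hnrnpk did not differ beyond their spread, with coefficients of variation over the 14 libraries of 36.3% and 18.0%. The lowest tested member was Hnrnpll at 14.7 TPM. Srsf12, an SR protein with 1 RNA recognition motif, stood at 0.06 to 0.78 TPM in KO-labelled and 0 to 0.82 in WT libraries, was listed at 0 in WT replicates 4 and 7, and was not tested. The 11 Srsf genes summed to 941 ± 155 TPM in KO-labelled and 702 ± 152 in WT libraries, and the 20 Hnrnp genes to 2722 ± 505 and 2242 ± 661 (SD, n = 7 each). The range of the whole set was 2634 to 4347 TPM in KO-labelled and 1964 to 3834 in WT libraries, so the groups overlapped.

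No member passed the test between KO-labelled and WT libraries, while nearly all had the higher mean log2 level in the KO-labelled group. Limma on log2(TPM + 1), with Benjamini-Hochberg adjustment over the 14719 genes that reached 1 TPM in 7 libraries or more, called 0 of 30 tested members at an adjusted p under 0.05, beside 0% of all genes called higher and 0.0204% called lower. At an unadjusted p under 0.05, 11 of 30 members were higher (36.7%, beside 4.67% of all genes) and 0 were lower (beside 6.74%). The log2 fold change was above 0 in 28 of 30 members (beside 54.6% of all genes). Its median was 0.38 over the members, 0.43 over the Srsf and 0.29 over the Hnrnp genes, against 0.036 over all genes tested. The groups did not overlap for 0 of 30 members (beside 0.109% of all genes higher without overlap and 0.211% lower). Members share libraries and co-vary between them, so their counts are not independent of each other. With libraries weighted by limma's array weights, estimated from these data, 3 members were called higher, Hnrnph1, Srsf5 and Hnrnph3. Of all genes, 1.68% were then called higher and 3.91% lower. The median log2 fold change with these weights was 0.28 over the members, against -0.029 over all genes. The smallest weights went to WT replicates 6 (0.26) and 4 (0.29), KO replicate 7 (0.31) and WT replicate 7 (0.48).

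**Figure D1:**
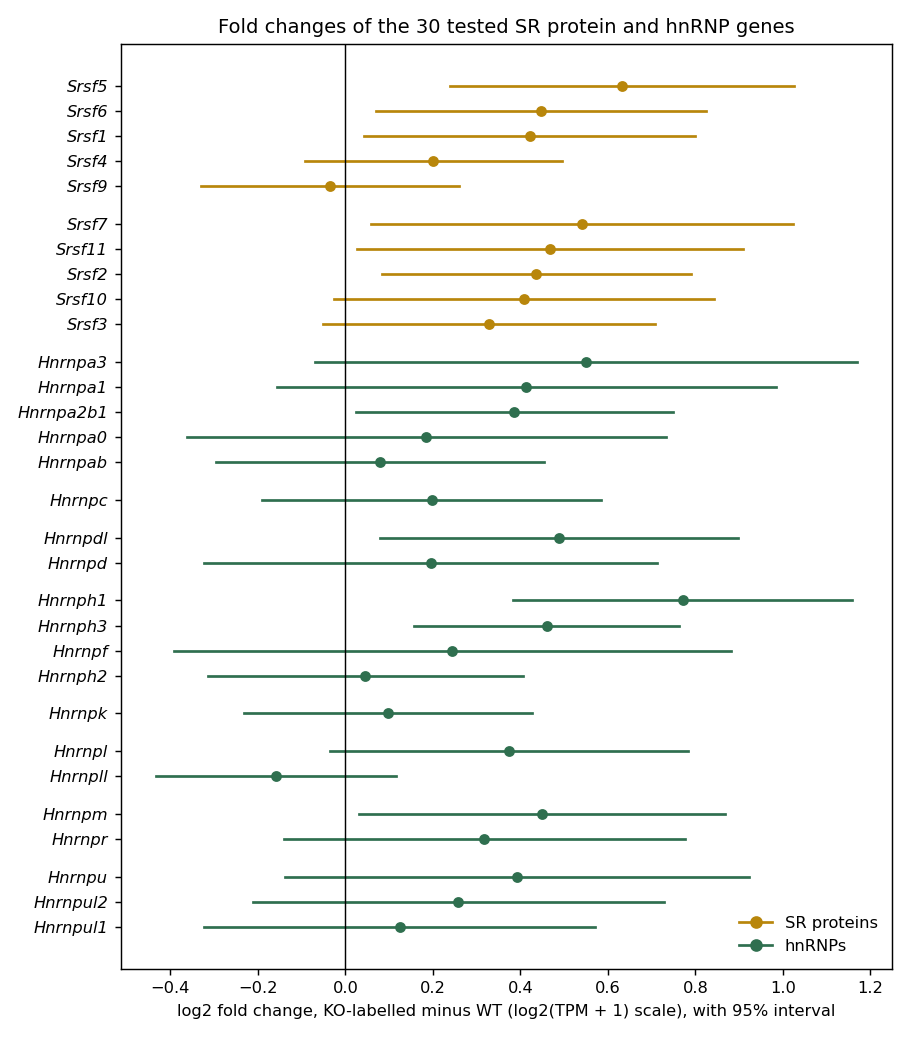
Log2 fold change of each tested member (KO-labelled minus WT, log2(TPM + 1) scale, n = 7 against 7), with bars for the 95% interval and members grouped by role. The interval lies above 0 for 11 members and below 0 for 0, and Srsf9 and Hnrnpll are the 2 members with a value below 0.

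**Figure D2:**
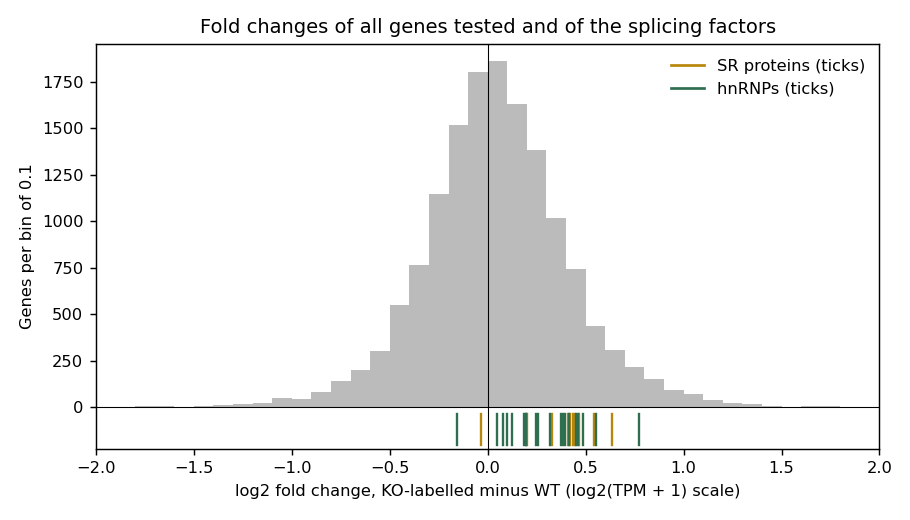
Number of genes per 0.1 of log2 fold change for the 14719 genes tested (grey bars), with ticks under the axis for the 30 tested members. The ticks run from -0.16 to 0.77 and most lie to the right of the median of all genes at 0.036.

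SR proteins with 2 RNA recognition motifs were led by Srsf5, which belongs with Srsf4 and Srsf6 to a closely related trio and is known for insulin-responsive splicing. Srsf5 stood at 151, 262 and 287 TPM (lowest, median, highest) in KO-labelled and at 93.7, 172 and 204 in WT libraries. In 6 of 7 KO-labelled libraries it was above every WT library, and KO replicate 2 lay inside the WT range. The log2 fold change was 0.63 ± 0.18 (SE; 95% interval 0.24 to 1.03; limma adjusted p = 0.24). Srsf6 ran from 56.8 to 103 TPM (median 85.3) in KO-labelled and from 39.1 to 76.8 (median 65.1) in WT libraries, a log2 fold change of 0.45 ± 0.18 (limma adjusted p = 0.38). Srsf1, the founding member that binds exonic enhancers and also acts in translation, ran from 63.5 to 99.6 TPM (median 80.7) against 41.0 to 88.7 (median 67.8). Its log2 fold change was 0.42 ± 0.18 (limma adjusted p = 0.41). For Srsf6 5 KO-labelled libraries and for Srsf1 3 exceeded every WT library, and WT replicates 4 and 6 had the lowest values. Srsf9, the close relative of Srsf1 with a short arginine-serine tail, was different: 46.0, 61.5 and 67.1 TPM in KO-labelled against 46.9, 66.1 and 74.6 in WT libraries. The group means of Srsf9 were closer than their spread, with 0 KO-labelled libraries above every WT library and a log2 fold change of -0.035 ± 0.14 (95% interval -0.33 to 0.26; limma adjusted p = 0.92).

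Srsf2 was the most abundant SR protein with 1 RNA recognition motif; it marks nuclear speckles and activates exons. It stood at 134, 182 and 208 TPM (lowest, median, highest) in KO-labelled and at 80.2, 134 and 174 in WT libraries, a log2 fold change of 0.44 ± 0.17 (limma adjusted p = 0.36). Srsf7, which links splicing to mRNA export, ran from 49.7 to 97.7 TPM (median 86.7) against 28.2 to 76.6 (median 61.6), a log2 fold change of 0.54 ± 0.23 (limma adjusted p = 0.41). Srsf11, which also sits in nuclear speckles, ran from 38.5 to 67.4 TPM (median 60.04) against 25.3 to 61.6 (median 47.7), a log2 fold change of 0.47 ± 0.21 (limma adjusted p = 0.42). Of the 7 KO-labelled libraries, 4 exceeded every WT library for Srsf2, 5 for Srsf7 and 2 for Srsf11, and WT replicates 4, 6 and 7 lay below all of them in the 3 genes. Srsf10, a repressor of splicing when dephosphorylated that acts on lipin 1 RNA in adipocyte differentiation, ran from 22.7 to 41.8 TPM (median 30.5) against 13.6 to 34.3 (median 26.3). Its log2 fold change was 0.41 ± 0.20 (limma adjusted p = 0.46). For Srsf3 the log2 fold change was 0.33 ± 0.18, and for Srsf4, of the first subgroup, 0.20 ± 0.14.

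The G-tract binding hnRNPs of the F and H group held the largest fold change of all members. Hnrnph1 stood at 101, 181 and 209 TPM (lowest, median, highest) in KO-labelled and at 67.1, 97.0 and 121 in WT libraries. All KO-labelled libraries but replicate 2 were above every WT library. The log2 fold change was 0.77 ± 0.18 (SE; 95% interval 0.38 to 1.16; limma adjusted p = 0.18). Hnrnph3, a shorter relative, stood at 29.2, 36.8 and 45.6 TPM against 17.4, 27.1 and 31.1, a log2 fold change of 0.46 ± 0.14 (95% interval 0.16 to 0.76; limma adjusted p = 0.26). WT replicate 6 was the lowest library for Hnrnph3, and 5 KO-labelled libraries exceeded every WT library. Hnrnpf, the most abundant of the group, spread widely in both groups, at 158, 281 and 403 TPM against 122, 269 and 366, a log2 fold change of 0.24 ± 0.30 (limma adjusted p = 0.73). Hnrnph2 gave 0.046 ± 0.17 on the same scale. With array weights the log2 fold changes were 0.79 ± 0.14 for Hnrnph1, 0.60 ± 0.13 for Srsf5 and 0.42 ± 0.10 for Hnrnph3 (limma adjusted p = 0.012, 0.019 and 0.029).

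Among the genes grouped here by symbol as hnRNPs A and B, Hnrnpa2b1 stood at 346, 454 and 528 TPM (lowest, median, highest) in KO-labelled libraries. In WT libraries it stood at 222, 352 and 456. Its log2 fold change was 0.39 ± 0.17 (95% interval 0.024 to 0.75; limma adjusted p = 0.42). KO replicates 1, 4 and 6 exceeded every WT library, and WT replicates 4, 6 and 7 lay below every KO-labelled one. Fold changes of the other 4 genes ran from 0.079 (Hnrnpab) to 0.55 (Hnrnpa3) on the log2 scale. Rows for possible gene copies bear on this group: 87 gene models with a Gm number carry a member's product name in the authors' annotation. Of these, 6 had a mean of 1 TPM or more. Their sequences were not compared with those of the members. The largest, Gm5641, an A3-like copy, stood at 113.6 ± 29.4 TPM in KO-labelled and 84.1 ± 42.4 in WT libraries, and Gm10052, an A1-like copy, at 34.5 ± 10.3 and 34.1 ± 19.0. Reads may be split between such copies and Hnrnpa3 or Hnrnpa1, so both genes are uncertain. Summed with its copies Gm5641 and Gm6161, Hnrnpa3 was at 263 ± 63 against 194 ± 92 TPM, and Hnrnpa1 with Gm10052 at 222 ± 57 against 181 ± 79 (SD, n = 7 each). For both sums the difference was smaller than the larger SD of the groups.

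The D group holds Hnrnpd (AUF1), which binds AU-rich elements and steers mRNA decay, and its relative Hnrnpdl. Hnrnpdl stood at 55.3, 91.8 and 103 TPM (lowest, median, highest) in KO-labelled and at 40.1, 64.4 and 78.3 in WT libraries, a log2 fold change of 0.49 ± 0.19 (limma adjusted p = 0.38). Hnrnpd stood at 85.7, 141 and 186 TPM against 64.7, 132 and 191, a log2 fold change of 0.19 ± 0.24 (limma adjusted p = 0.74). For Hnrnpdl 5 of 7 KO-labelled libraries exceeded every WT library and for Hnrnpd 0 did.

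In the other hnRNP groups the ranges of KO-labelled and WT libraries overlapped for every gene. Hnrnpc, a binder of uridine tracts, stood at 90.1, 134 and 169 TPM (lowest, median, highest) in KO-labelled and at 76.5, 121 and 151 in WT libraries, a log2 fold change of 0.20 ± 0.18 (limma adjusted p = 0.67). Hnrnpk, which binds cytosine-rich RNA and DNA, stood at 207, 273 and 321 TPM against 184, 247 and 311, a log2 fold change of 0.098 ± 0.15 (95% interval -0.23 to 0.43; limma adjusted p = 0.79). For both, KO replicate 4 was the only library above every WT value, and WT replicates 4 and 6 lay below all KO-labelled ones. Hnrnpm, which binds GU-rich RNA, stood at 73.6, 108 and 131 TPM against 46.4, 84.1 and 122, a log2 fold change of 0.45 ± 0.20 (95% interval 0.030 to 0.87; limma adjusted p = 0.41). Hnrnpu, a scaffold protein that binds RNA and chromatin, stood at 91.3, 116 and 149 TPM against 49.6, 105 and 158, a log2 fold change of 0.39 ± 0.25 (limma adjusted p = 0.56). For Hnrnpm 2 KO-labelled libraries and for Hnrnpu 0 exceeded every WT library. Hnrnpr, Hnrnpul1 and Hnrnpul2 gave 0.32, 0.12 and 0.26 on that scale. In the L group, Hnrnpl, a binder of CA repeats, stood at 149, 231 and 262 TPM against 118, 174 and 240, a log2 fold change of 0.37 ± 0.19 (limma adjusted p = 0.47). Hnrnpll, known for Cd45 splicing in lymphocytes, stood at 11.3, 13.95 and 16.7 TPM against 10.6, 16.0 and 17.9, with a log2 fold change of -0.16 ± 0.13 (95% interval -0.43 to 0.12; limma adjusted p = 0.64).

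**Figure D3:**
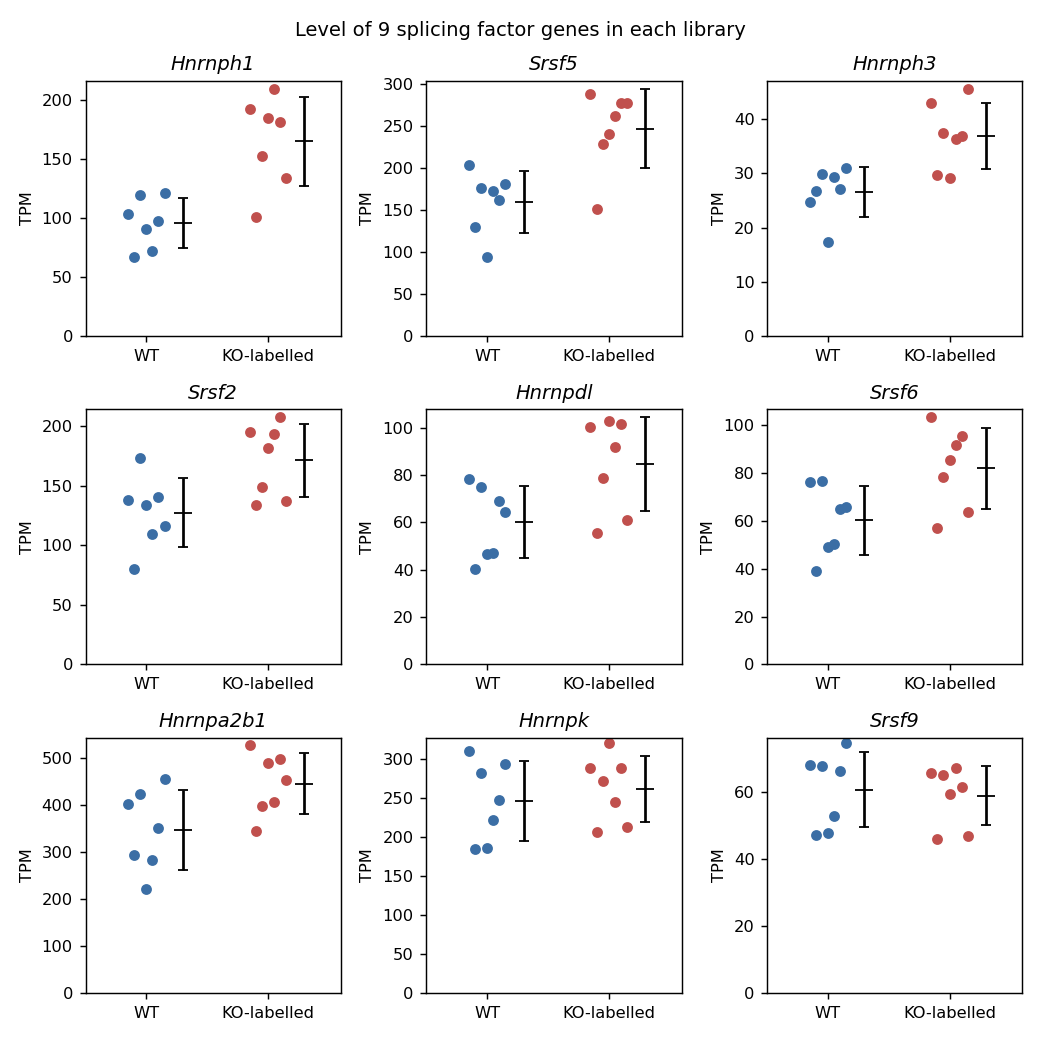
TPM in each library (points, 7 per group) for 9 members, with the mean and SD beside each group. Hnrnph1 and Srsf5 show 6 of 7 KO-labelled libraries above all WT points, Hnrnpk shows 1 and Srsf9 shows 0.

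Individual libraries ran low or high for most members together. WT replicate 4 was the lowest library for 15 of the 30 tested members and WT replicate 6 for 13, and each was among the lowest 4 for 29. WT replicate 7 was among the lowest 4 for 23 members and KO replicate 2 for 20, while KO replicate 4 was the highest for 11. WT replicates 4 and 7 are low in B-cell transcripts, and WT replicate 6 is not, with Cd79a at 529 TPM. T-cell markers (16 genes) summed to 377 TPM in WT replicate 6, to 12.7 and 32.5 in WT replicates 4 and 7, and to 803 to 1483 in the other WT libraries. Adipocyte markers summed to 69202, 62051 and 65117 TPM in WT replicates 4, 6 and 7, and to 36128 to 43361 in the other WT libraries. They stood at 48863 TPM in KO replicate 2 and 66875 in KO replicate 7. A link to the member levels was not tested. Without the 3 libraries low in B-cell markers the median log2 fold change of the members was 0.23, and 3 members were higher at an unadjusted p under 0.05 (beside 3.25% of all genes). Without WT replicate 4 the median was 0.28 and that count 4 (beside 2.71%). Leaving out KO replicate 1 gave a count of 5 (beside 2.79%). It was 6 on leaving out KO replicate 4 (beside 3.59%), KO replicate 6 (2.76%), WT replicate 6 (3.25%) or WT replicate 7 (3.37%), against 11 in all libraries (4.67%). The log2 fold change of Hnrnph1 was 0.65 without the 3 libraries and ran from 0.69 to 0.88 with any 1 library left out; that of Srsf5 was 0.58 and ran from 0.51 to 0.74.

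**Figure D4:**
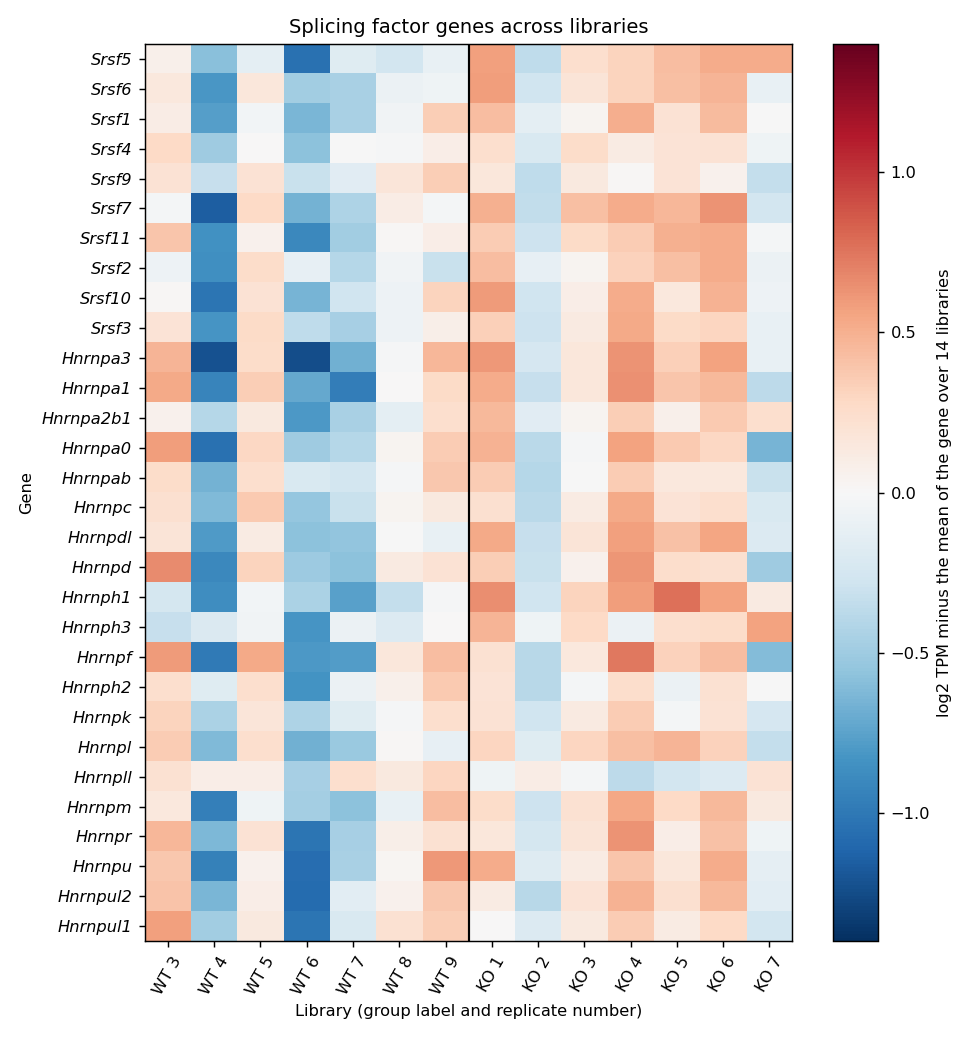
Log2 TPM of each tested member minus its mean over the 14 libraries (colour scale), with WT libraries left of the line and KO-labelled libraries right. WT replicates 4, 6 and 7 and KO replicate 2 are blue (below the mean) for most rows.

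Ratios between related members inside a library depend little on the fixed total of TPM, apart from the pseudocount of 1, which weighs most on the low gene Hnrnpll. On log2(TPM + 1), 8 pairs were compared by a 2-sided exact permutation test over every way to part the 14 libraries 7 to 7 (smallest possible p = 0.000583). The pairs were chosen with earlier results of these data known, so their p-values are descriptive. Srsf1 against Srsf9 differed between the groups. The log2 ratio was 0.47 ± 0.21 in KO-labelled and 0.018 ± 0.15 in WT libraries (SD, n = 7 each; exact p = 0.00175, adjusted over 8 pairs 0.014). In 6 of 7 KO-labelled libraries it was above every WT value, the exception, replicate 3, being at 0.15. Hnrnph1 against Hnrnph2 also differed, at 1.81 ± 0.25 in KO-labelled and 1.09 ± 0.36 in WT libraries (exact p = 0.0035, adjusted 0.014). WT replicate 6, at 1.82, stood inside the KO-labelled range, and the other 6 WT libraries were below all KO-labelled ones. Hnrnpd against Hnrnpdl was lower, at 0.65 ± 0.14 against 0.94 ± 0.20 (exact p = 0.00874, adjusted 0.0233), with 5 of 7 KO-labelled libraries below every WT library. Without KO replicate 6 that difference was -0.26 and did not pass (exact permutation, adjusted p = 0.0544).

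The other 5 ratios did not pass. Hnrnpl against Hnrnpll differed by 0.53 (exact p = 0.0408, adjusted 0.0681), Hnrnpul1 against Hnrnpul2 by -0.13 (exact p = 0.0425, adjusted 0.0681) and Srsf3 against Srsf7 by -0.21 (exact p = 0.0548, adjusted 0.073). Hnrnpl/Hnrnpll passed without KO replicate 2 or 7, Hnrnpul1/Hnrnpul2 without KO replicate 2, and Srsf3/Srsf7 without KO replicate 7 or WT replicate 8. Srsf5 against Srsf6 differed by 0.19 (exact p = 0.224, adjusted 0.256). It passed at 0.23 without the 3 libraries low in B-cell markers (exact permutation, adjusted p = 0.026), and was lower without KO replicate 7 (0.098) or WT replicate 6 (0.11). The difference for Hnrnpa1 against Hnrnpa2b1 was 0.027 (exact p = 0.884). The share of Srsf9 in the summed Srsf level was 6.29% ± 0.64 in KO-labelled (5.64% to 7.25%) and 8.71% ± 0.70 in WT libraries (7.94% to 9.83%). It was the only 1 of 31 shares of a member in its family whose groups did not overlap, was picked after the values were seen and was not tested. The Srsf sum per 100 TPM of the Hnrnp sum was 34.8 ± 2.5 in KO-labelled and 32.0 ± 3.4 in WT libraries, with overlapping ranges.

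**Figure D5:**
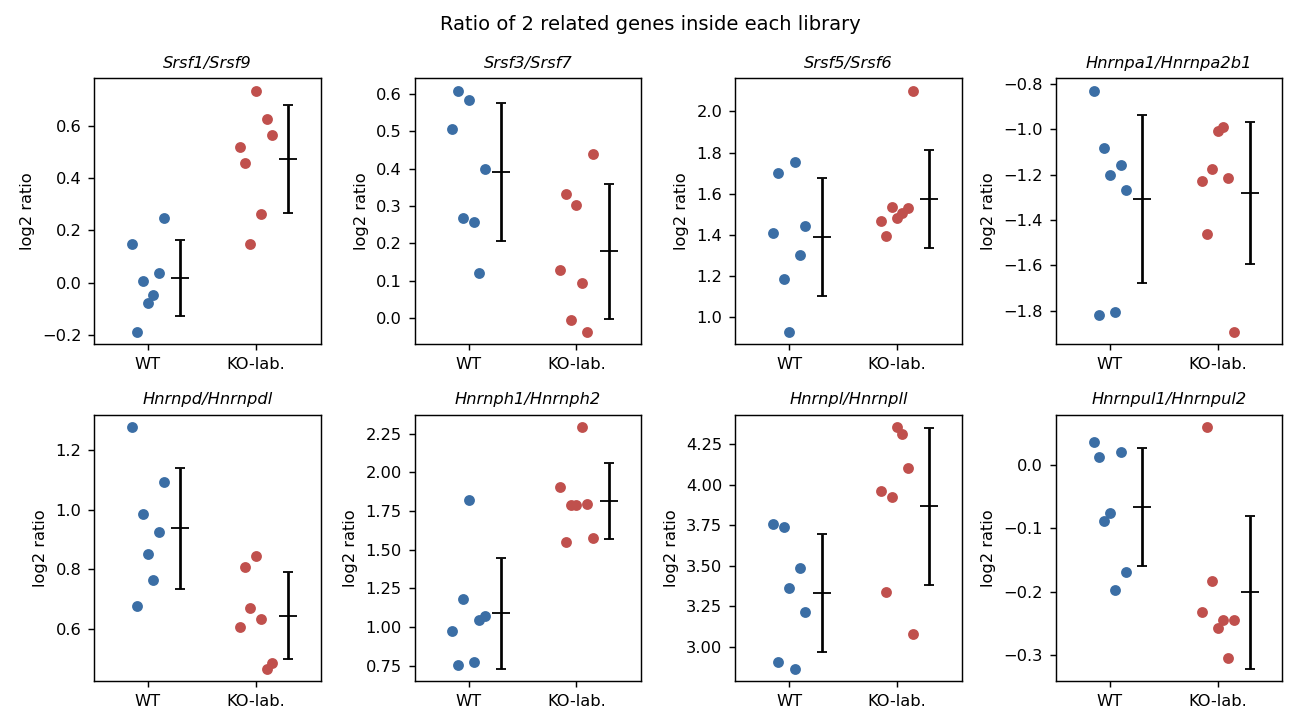
Log2 ratio of 2 related members in each library (points), with the mean and SD beside each group. Srsf1/Srsf9 and Hnrnph1/Hnrnph2 sit higher and Hnrnpd/Hnrnpdl lower in KO-labelled libraries, with some overlap in every panel.

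Genes around the members in the splicing pathway were counted in the same fit, and limma called 0 of them in all 6 lists. Over all genes tested, 54.6% had a positive fold change, and 4.67% were higher and 6.74% lower at an unadjusted p under 0.05. SR-related proteins, nuclear proteins with arginine-serine stretches that are not SR proteins, had 28 of 29 genes with a positive fold change, 17 higher and 0 lower at an unadjusted p under 0.05, and a median log2 fold change of 0.43. Pnisr (0.83 ± 0.17), Pnn (0.86 ± 0.21), Rbm39 (0.64 ± 0.17) and Srrm2 (0.72 ± 0.21), a scaffold of nuclear speckles, had the smallest p (log2 fold change ± SE, limma adjusted p = 0.13 to 0.23). SR kinases, phosphatase and carriers had 14 of 16 positive, 4 higher and 1 lower, with a median of 0.28. Clk4, a kinase that phosphorylates SR proteins, stood at 34.6 to 54.0 TPM in KO-labelled and 23.2 to 31.2 in WT libraries without overlap, a log2 fold change of 0.66 ± 0.11 (limma adjusted p = 0.10). Its relative Clk1 gave 0.70 ± 0.16 (limma adjusted p = 0.17).

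Core spliceosome genes had 29 of 40 positive (beside 54.6% of all genes), 4 higher (beside 4.67%) and 0 lower (beside 6.74%) at an unadjusted p under 0.05, with a median log2 fold change of 0.13; Snrnp70, a protein of the U1 particle, gave 0.58 ± 0.18. The list of other splicing regulators includes hnRNPs under other symbols. It had 25 of 33 tested positive, 5 higher and 1 lower, with a median of 0.20. Tia1, which acts at weak 5′ splice sites, gave 0.82 ± 0.22 and Nova1, known from neurons, -0.76 ± 0.30. Genes of nonsense-mediated decay and the exon junction complex had 13 of 16 positive, 1 higher and 0 lower, with a median of 0.19. Arginine methyltransferases, which modify hnRNPs, had 7 of 9 positive, 0 higher and 1 lower (Prmt5, -0.24 ± 0.11), with a median of 0.081.

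Noncoding RNAs also stood higher in sum in the KO-labelled libraries. The summed level of a list of 10 was 728 to 1118 TPM in KO-labelled and 445 to 659 in WT libraries, without overlap. That list holds 4 host genes of small nucleolar RNAs (Gas5, Snhg1, Snhg11 and Snhg12), whose spliced transcripts leave the nucleus. The other 6, among them Malat1 and Neat1, summed to 285 to 705 TPM against 152 to 306, with overlap, and the host genes to 302 to 533 against 191 to 399.8; this split was made after the values were seen. Malat1, which resides in nuclear speckles, ran from 109 to 205 TPM against 34.5 to 108 (log2 fold change 1.15 ± 0.22, limma adjusted p = 0.10). Gene models of the classes sense intronic and TEC, single-exon loci of uncertain status, took 0.0681% to 0.0917% of TPM in KO-labelled and 0.0409% to 0.0632% in WT libraries. Of 15 adipocyte markers, 13 were at a lower mean log2 level in the KO-labelled group (4 with unadjusted p under 0.05, beside 6.74% of all genes), as were 13 of 14 macrophage markers (6 at that level) and 11 of 11 tested skeletal muscle markers (0 at that level, median log2 fold change -1.70). T-cell markers were at a higher mean log2 level in 16 of 16 (median 0.93), and B-cell and plasma-cell markers in 11 of 12 (median 1.16). In both lists 0 were higher at that level, and 54.6% of all genes had a positive fold change. Very low values in KO replicate 7 and WT replicates 4 and 7 weigh on these log2 means. The median summed level of T-cell markers was 973 TPM in KO-labelled and 803 in WT libraries. For B-cell and plasma-cell markers it was 1716 against 1403 TPM. The part of nuclear RNA or of cell makeup in the fold changes of the members was not tested.

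Annotated transcripts of the members include many that do not code for the full protein. In GENCODE M21, 19 of 31 members (61.3%), among them 9 of 11 Srsf genes, have a transcript classed as a target of nonsense-mediated decay, against 28.6% of 12597 protein-coding genes tested. A retained-intron transcript is annotated for 22 of 31 (71.0%) against 58.5%. The median number of annotated transcripts is 7 for the members and 5 for those protein-coding genes. The shares were not adjusted for that number. A gene-level TPM adds all of these, so it does not give the level of protein-coding transcripts. Exons of another gene overlap 14 of the 31 members, 3 on the same strand and 11 on the opposite strand, and the strand handling of the deposited values is not given. Hnrnpd, Hnrnph3, Hnrnpl, Hnrnpk, Hnrnpu, Srsf1 and Srsf2 are among the members with an opposite-strand overlap, so reads of their neighbours may not have been told apart from theirs.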

How the data were processed

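RNA of 14 adipose tissue samples was sequenced from TruSeq libraries of total RNA, per the labels' protocols. The authors deposited gene-level TPM values, in 1 table with a column per library; Bowtie 0.12.2 and the builds mm8 and mm9 are named in the submitters' processing notes with no role. The program that made the TPM values, the annotation, strand handling and treatment of shared reads are not named in the labels. TPM keeps no read number, so depth is unknown and no counting interval is given.

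Rows of the same symbol were summed. Values were taken as log2(TPM + 1) and compared by limma-trend (limma 3.58.1, R 4.3.3, robust prior, 2-sided) over the 14719 genes that reached 1 TPM in 7 libraries or more, with Benjamini-Hochberg adjustment over all of them and a threshold of 0.05. Fold changes are KO-labelled minus WT and are understated for low genes. P-values weigh the difference between groups against the spread between libraries, each taken as 1 mouse. Log2 ratios, the differences in log2(TPM + 1) between the genes of a pair, were tested by exact permutation. Python 3.11.15 was used for these and the figures. The limma script was tested on simulated data. Members, lists and pairs were chosen with earlier results of these data known. Named are the 12 tested members with the smallest p, the most abundant of each role, members of a pair, and up to 4 genes of each other list by smallest p; further members are named for their annotation. Promoters are from RefSeq (GRCm38.p6) and transcript classes from GENCODE M21, whose build may differ from the authors'. Alternatives were other pseudocounts (0.1, 0.5), filters (none, 5 TPM), scalings, rows as deposited, array weights, no trend, libraries left out and a replicate block.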

Additional observations from a re-analysis of the deposited data

Results flagged for a closer look

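In 4 of 82 groups of 7 libraries looked at, 1 library stood far from the rest by Dixon's criterion, which divides a library's gap to its neighbour by the range of the group; chance gives about 1 group in 20. Hnrnpll in WT replicate 6 was at 10.56 TPM, with the next library at 15.51 and the highest at 17.86. The log2 ratio of Hnrnph1 to Hnrnph2 in WT replicate 6 was 1.82, with the next WT library at 1.18. For Srsf5 to Srsf6 it was 2.10 in KO replicate 7, with the next KO-labelled library at 1.54. The log2 ratio of Hnrnpul1 to Hnrnpul2 was 0.0588 in KO replicate 2, with the next at -0.18. The 2 values of WT replicate 6 come from the library that was lowest for 13 members and had the smallest array weight.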

How the results depend on the processing

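Over 27 alternatives the median log2 fold change of the members stayed above 0, from 0.23 without the 3 libraries low in B-cell markers to 0.50 in the 10 libraries whose replicate number occurs in both groups. The count of members called was 0 in each alternative except array weights, which called 3 (beside 248 genes higher and 575 lower among all). Array weights also called 4 SR kinase and carrier genes, 10 SR-related genes, 1 core spliceosome gene and 2 other regulators. TPM without mitochondrial genes called 1 kinase or carrier gene, quantile normalization 2 SR-related genes and median-ratio scaling 1. Over all genes, calls were 0 higher and 3 lower with same-symbol rows summed, 0 and 1 with rows as deposited, 13 and 6 with quantile normalization, 3 and 5 with median-ratio scaling, and 2 and 4 without mitochondrial genes. The cause of these differences was not tested.

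At an unadjusted p under 0.05, 11 members were higher in the full data (beside 4.67% of all genes), 18 with quantile normalization (beside 6.71%), 3 without the 3 libraries (3.25%), and 4 to 14 with 1 library left out (4 without WT replicate 4, 2.71%). With array weights 14 members were higher at that level (beside 8.68% of all genes) and 1 was lower. Without WT replicate 6, 6 were higher (beside 3.25%) and 1 was lower. The share of all genes lower in those settings was not counted. With 1 library left out, the median ran from 0.28 to 0.44, Hnrnpd from 0.063 (WT replicate 4) to 0.32 (WT replicate 3), Hnrnpf from 0.10 (WT replicate 4) to 0.37 (KO replicate 7) and Hnrnpk from 0.033 (WT replicate 4) to 0.16 (WT replicate 3).

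Members close to 0 changed sign. Srsf9 was at 0.050 with quantile normalization, 0.012 without mitochondrial genes and 0.090 in the libraries with shared numbers. With 1 library left out it ran from -0.091 (WT replicate 4) to 0.021 (KO replicate 2), and was also above 0 without KO replicate 7 (0.016) or WT replicate 9 (0.018). Hnrnpab was at -0.029 without the 3 libraries and ran from -0.024 (WT replicate 4 left out) to 0.15. Hnrnph2 was at -0.046 with array weights and -0.086 without WT replicate 6, and Hnrnpul1 at -0.070 and -0.030.

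WT and KO-labelled libraries share the replicate numbers 3 to 7. Deviations of same-numbered libraries correlated at 0.11, -0.67, 0.60, -0.18 and 0.80, and libraries correlated best with their own number only for 5 and 7, so the numbers were not taken to pair the mice. With the replicate block, 9 members were higher at an unadjusted p under 0.05, beside 5.13% of all genes (12, beside 5.6%, in the same 10 libraries without the block, an alternative chosen after seeing the data), 0 were called, and Srsf9 was at 0.090. With the replicate block the ratios were tested by exact sign flips of the 5 pairs, where no p can go below 0.0625. Srsf1/Srsf9 was at 0.50, Hnrnph1/Hnrnph2 at 0.75 and Hnrnpd/Hnrnpdl at -0.29, each with an adjusted p = 0.20 by exact sign flips.

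With 1 library left out, Srsf1/Srsf9 ran from 0.41 to 0.51, Hnrnph1/Hnrnph2 from 0.65 to 0.85, Hnrnpd/Hnrnpdl from -0.34 to -0.24, Hnrnpl/Hnrnpll from 0.45 to 0.66, Hnrnpul1/Hnrnpul2 from -0.18 to -0.12, Srsf3/Srsf7 from -0.26 to -0.18, Srsf5/Srsf6 from 0.098 to 0.25 and Hnrnpa1/Hnrnpa2b1 from -0.057 to 0.13. Srsf3/Srsf7 passed without KO replicate 7 or WT replicate 8, Hnrnpl/Hnrnpll without KO replicate 2 or 7, and Hnrnpul1/Hnrnpul2 without KO replicate 2. Without the 3 libraries, Srsf5/Srsf6 was at 0.23 (exact permutation, adjusted p = 0.026) and Hnrnpa1/Hnrnpa2b1 at -0.0711. Hnrnpa1/Hnrnpa2b1 was below 0 also without KO replicate 4 (-0.0181), KO replicate 5 (-0.021), WT replicate 4 (-0.057) or WT replicate 7 (-0.0551). The depth of the libraries is unknown, so counting error is not separated from the spread between mice.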
